A study of Mus musculus with 12 samples.

Results

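The adrenal transcriptome of mice given aspartame alone (ASP) was compared with that of untreated control mice (CON), using 6 of the 12 arrays of the series. The arrays were taken by their titles, 3 for ASP and 3 for CON. All mice were male C57Bl/6J, aged 21 weeks. The ASP mice received aspartame, a dipeptide sweetener given in drinking water. It came through their mothers from before birth until weaning, and then with their own water up to the end of the study. The labels give 46 mg per kg body weight for both aspartame groups of the series, and the intake of the ASP mice by themselves was not analysed here. The CON mice received neither aspartame nor CGP 39551, an antagonist of the NMDA-type glutamate receptor which mice of the other groups of the series received early in life (5 mg per kg) (CGP and ASP+CGP). Every mouse was fasted overnight and anaesthetised with ketamine and xylazine before the adrenals were removed whole, so that cortex, medulla and any attached tissue entered the RNA together. For each group RNA of its mice was combined into 1 pool and hybridised to 3 arrays. The error of each value is therefore the spread between arrays of 1 pool, and how far pools of other mice would differ cannot be told from these data.

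The adrenal gland makes steroid hormones in its cortex and catecholamines in the chromaffin cells of its medulla, which come from the neural crest and share much of their release machinery with neurons. Many gene families hold one or more members used chiefly in nervous tissue beside members used in most cells. Examples are tubulins, kinesins, enolases and splicing factors. Setting such relatives side by side shows whether a whole class moved or only some of its members.

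Rises in ASP were most frequent among neural adhesion genes such as neurexins and contactins (42 of 47), microtubule-associated proteins and stathmins (20 of 28) and sodium and calcium channels (21 of 32). Of the tested members 9, 1 and 3, in the same order, had a CON mean under 6. Such genes were tested only because another pool mean was 6 or more. Among the classes described here the share of falls was highest in steroid hormone synthesis (7 of 15). Complement and immunoglobulin receptor genes (11 of 31), interferon-stimulated genes (17 of 50) and HOX genes (11 of 34) came next. In the values as deposited each of these classes had 0 rises, and most of their members were not called. A gene was called when its limma p-value, adjusted over 15900 genes, was under 0.05 and its fold change was at least 1.4. In all, 1559 genes were called higher (9.81% of those tested) and 1292 lower (8.13%). The rises were larger than the falls. At least a 2-fold difference was reached by 781 genes that rose and 64 that fell, and at least a 4-fold difference by 239 that rose and 0 that fell. Counts of falls depended on how the arrays were scaled. The median difference over all genes was -0.10 on the log2 scale with the deposited normalisation and 0.01 after cyclic loess, a scaling that brings arrays together at each signal level. After cyclic loess 1926 genes (12.1%) were called higher and 479 (3.01%) lower, and the higher share of the calls went from 54.7% to 80.1%. Counts after cyclic loess are therefore given beside those of the classes that fell. For the classes named above with falls they were 3, 5, 7 and 7 falls, in the same order, and 1 interferon-stimulated gene rose.

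**Figure D1:**
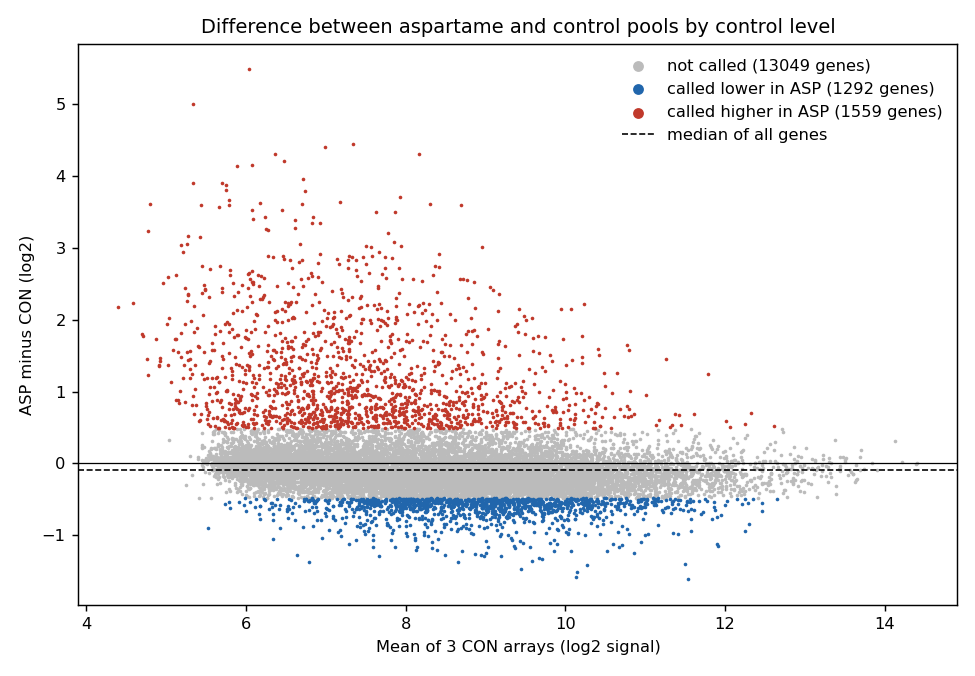
Each point is 1 of 15900 genes, with its mean log2 signal over the 3 CON arrays on the horizontal axis and its ASP minus CON difference (log2) on the vertical axis. Red marks the 1559 genes called higher, blue the 1292 called lower, and the dashed line the median of all genes (-0.10), with the tallest differences among genes of low to middle CON signal and all falls shallower than the largest rises.

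Calls were spread unevenly over the range of signal. Among the 925 genes with a CON mean under 6, 23.4% were called higher and 0.865% lower. Of the 1435 genes with a CON mean from 10 to 11, 3.9% were called higher and 13.1% lower. The CON level is itself one side of each difference, so these shares are given as a description. Genes with a CON mean under 6 were kept only because another pool mean was 6 or more, which favours rises over falls among them. Dok6 was the dimmest gene kept, with a highest pool mean of 6.0003 (in ASP), and Adh6a the brightest left out, at 5.9997.

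The 12 largest rises outside the receptor, liver and brain marker genes ran from Vstm2a and Rasgrp1 to Lgi1 and were all at least 10-fold. Rasgrp1, an activator of Ras that responds to calcium and diacylglycerol (probe set 10486061, Entrez 19419), read 6.70, 6.85 and 6.66 on the CON arrays and 10.51, 10.54 and 10.54 on the ASP arrays. This made a 13.8-fold rise (ASP minus CON 3.79 ± 0.079 SE on the log2 scale, 3 arrays per pool, limma adjusted p = 3.27e-14). Tubb4a, a beta tubulin of brain (probe set 10452295, Entrez 22153), read 8.29, 8.35 and 8.26 in CON and 11.92, 11.90 and 11.92 in ASP, which made 12.2-fold (log2 difference 3.61 ± 0.052 SE, limma adjusted p = 9.72e-16). In both genes the lowest ASP array stood far above the highest CON array. Genes whose CON and ASP arrays overlapped could not enter the 12 largest rises or falls, so the lack of overlap is part of how they were chosen. Over all genes, all 3 ASP arrays lay above all 3 CON arrays in 20.6% and below them in 43.0%.

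Nrxn3, a presynaptic adhesion protein (probe set 10397575, Entrez 18191), rose 12.3-fold, from a CON mean of 6.18 to an ASP mean of 9.80. Rasgef1a, an exchange factor for small GTPases, rose 11.5-fold, and Kif5a, the neuronal heavy chain of conventional kinesin, 11.3-fold. Cntn1, a contactin of the axon surface, rose 10.8-fold, Hepacam, an adhesion protein of glia, 10.6-fold, Dclk1, a microtubule-binding kinase, 10.4-fold, and Lgi1, a secreted protein of synapses, 10.2-fold. Vstm2a, Bend6 and Ntm had CON means under 6, the level at which the authors cut off dim values, so their folds are bounds: Vstm2a was at least 12.1-fold, Bend6 at least 10.9-fold and Ntm at least 10.4-fold higher.

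**Figure D2:**
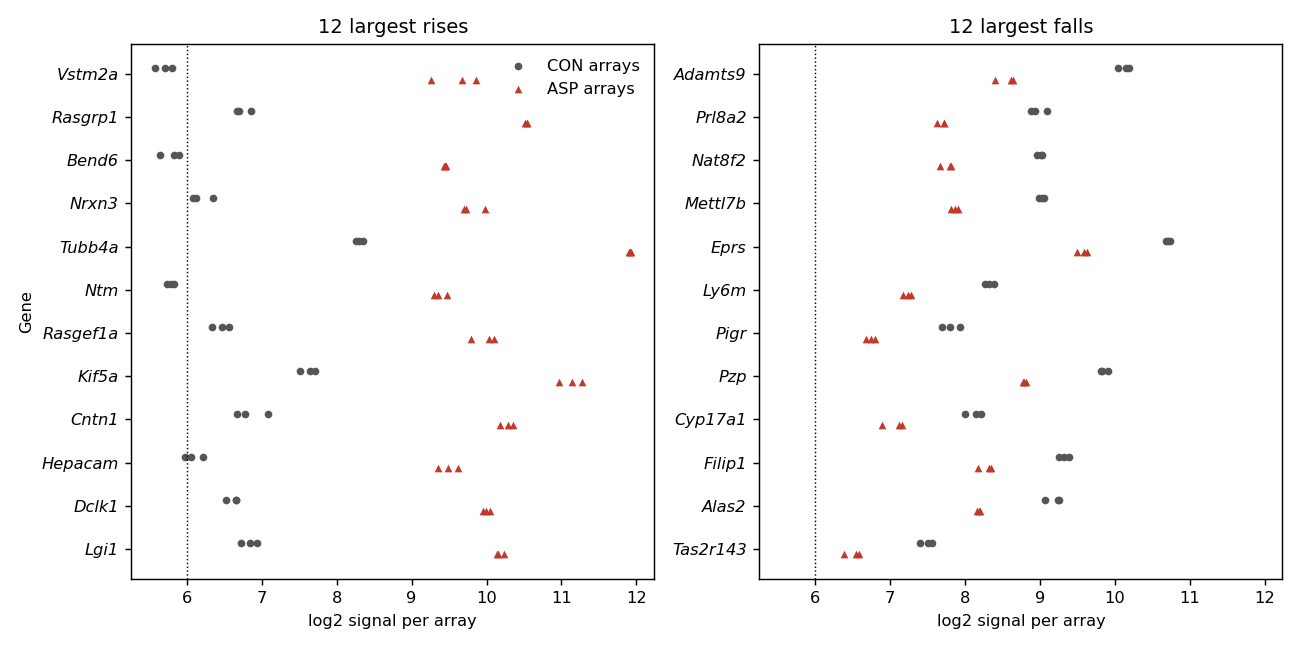
Log2 signal of each CON array (circles) and each ASP array (triangles) for the 12 largest rises (left) and 12 largest falls (right) outside the receptor, liver and brain marker lists; the dotted line marks 6. Arrays of 1 pool lie close together. The 24 genes were chosen among those whose pools do not overlap. Vstm2a and Rasgrp1 stand at the top of the rises and Adamts9 at the top of the falls.

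The tissue label was checked against adrenal markers. All 9 cortex markers tested were at 6 or more in both pools, and 2 of them fell (1 after cyclic loess). Hsd3b1, which converts pregnenolone to progesterone, had a mean of 12.37 in both pools, and Cyp11b1, the last step of corticosterone synthesis, had 13.90 in CON and 13.81 in ASP. Of the 6 chromaffin markers tested, all were at 6 or more and 1 fell, with Th, the first enzyme of catecholamine synthesis, at 13.39 in CON and 12.97 in ASP. The 2 cortex markers that fell were Cyp11b2, the aldosterone synthase, 1.59-fold lower, and Nr5a1, the SF-1 factor of steroid cells, 1.45-fold lower.

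Markers of neurons, oligodendrocytes and astrocytes rose as well. Some of them, among them Camk2a, Nefl, Nefm, Rbfox3, Stmn2, Gfap and Aldoc, are also counted in the classes and families described here. Of 8 neuron markers 8 rose, and their summed linear signal ran from 4107 to 4274 over the CON arrays and from 16733 to 17699 over the ASP arrays. All 6 oligodendrocyte markers tested rose (sums of 1498 to 1527 in CON and 7730 to 8345 in ASP), and so did all 7 astrocyte markers (2089 to 2168 in CON and 10424 to 11355 in ASP). Microglia markers summed to 1568 to 1762 in CON and 1567 to 1681 in ASP, with 1 of 4 higher, P2ry12. The same sums in the ASP+CGP pool, whose mice drank aspartame as well, were 3576 to 3954 for neurons, 1404 to 1445 for oligodendrocytes and 1806 to 1859 for astrocytes. Signals of the ASP+CGP arrays were less spread, with interquartile ranges of 2.196 to 2.294. Those of CON were 2.577 to 2.617 and those of ASP 2.522 to 2.607, so sums of ASP+CGP are not on quite the same scale. Of pituitary markers 2 of 4 rose, Gh and Pomc (sums of 378 to 411 in CON and 516 to 544 in ASP). Only Nefm, Opalin and Aqp4 among the neuron, oligodendrocyte and astrocyte markers tested had a CON mean under 6. What part brain cell RNA had in the classes that rose was not tested. In pooled whole glands fewer cells of a type and less RNA per cell cannot be told apart.

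Markers of other cell types gave mixed results. Of 4 Schwann cell markers tested 2 rose and 0 fell, S100b (5.92-fold) and Sox10 (1.96-fold), both of which other glia also hold, while the sums of the 4 were 4858 to 5037 in CON and 4255 to 4419 in ASP. Of 6 ependyma and choroid plexus markers 1 rose, Otx2, at least 1.11-fold from a CON mean under 6, and 0 fell. Their median log2 difference was 0.19, while their sums were 3962 to 4079 in CON and 3036 to 3128 in ASP. Foxj1, Kl and Otx2 had CON means under 6, so these sums rest on the other members, Ttr, Ccdc153 and Folr1, which were not separated. In CGP the sums were 6294 to 6580 and in ASP+CGP 2175 to 2374. The order of the 4 pools was the same for the liver marker sums. Whether these sums come from ependyma or choroid plexus was not tested. Endothelial markers summed to 6548 to 6663 in CON and 4856 to 5055 in ASP, with 3 of 5 lower (1 after cyclic loess). Liver markers summed to 19621 to 19846 in CON and 12188 to 12710 in ASP, with 4 of 5 lower (4 after cyclic loess). Fat markers summed to 15490 to 16189 in CON and 14774 to 14863 in ASP, with 1 of 6 lower, Lep, which was not called after cyclic loess. None of the 4 muscle and 3 kidney markers tested was called in either direction. Cortex markers summed to 83541 to 84937 in CON and 72954 to 75119 in ASP, and chromaffin markers to 42983 to 43695 and 33836 to 34461.

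**Figure D3:**
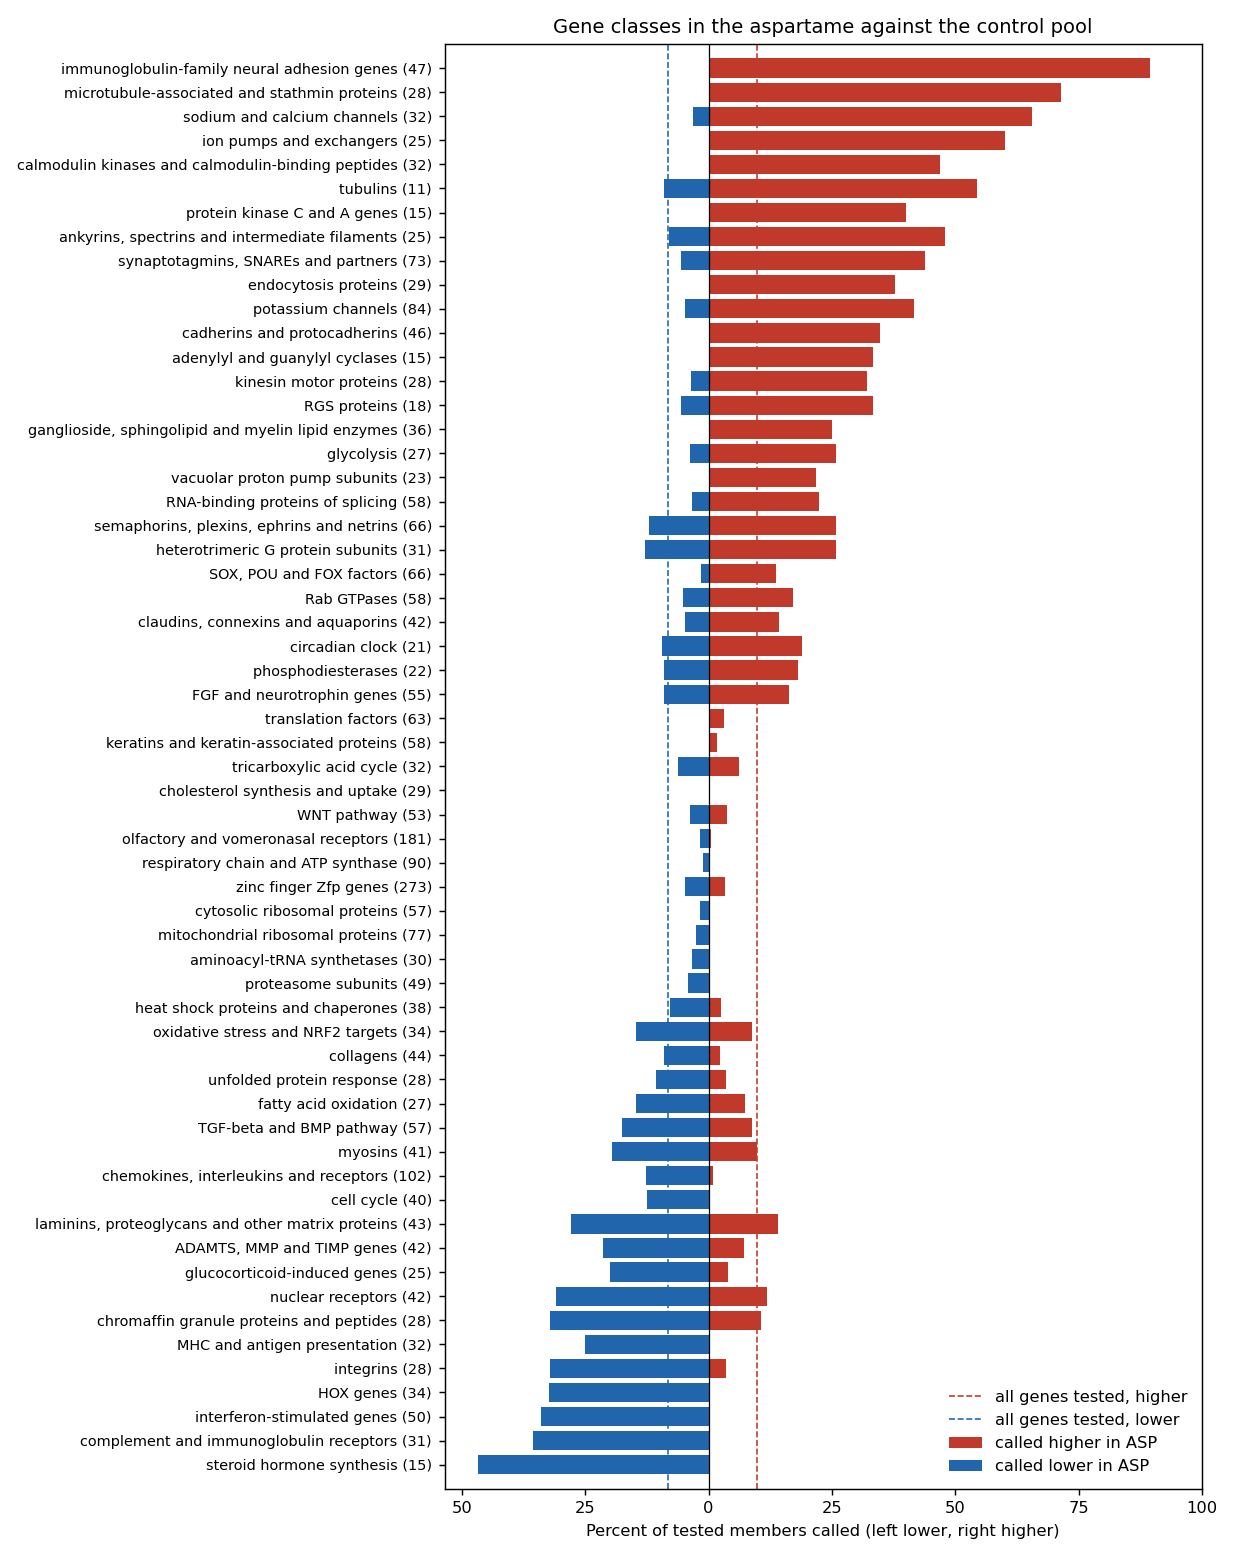
Percent of the tested members of each gene class (number tested in brackets) called higher in ASP (red bars, to the right) and lower (blue bars, to the left), with dashed lines at the shares over all 15900 genes (9.81% higher, 8.13% lower). Neural adhesion genes, labelled as immunoglobulin-family though they include neurexins, stand at the top with 89.4% higher, and steroid hormone synthesis at the bottom with 46.7% lower.

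Cytoskeletal classes differed in how many of their members rose. Of 28 genes for microtubule-associated proteins and stathmins, which stabilise or take apart microtubules, 20 rose and 0 fell (median log2 difference 0.98, against -0.10 over all genes). Map1a rose 7.42-fold, Stmn1 6.67-fold and Map7d2 5.07-fold. Of 11 tubulins 6 rose, and beside Tubb4a these included Tubb3 at 6.49-fold, Tubb2b at 6.09-fold and Tubb2a at 3.58-fold. The sequences of beta tubulins are much alike, so that signal shared between their probes was not separated. The 1 tubulin that fell was Tubb6, 1.44-fold, which was not called after cyclic loess. Of 28 kinesins, motors that carry cargo along microtubules, 9 rose, with Kif5c at 3.96-fold, Kif1a at 2.68-fold and Kif3c at 1.69-fold, and 1 fell, Kif5b (1.46-fold), which was not called after cyclic loess.

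Among 25 ankyrins, spectrins and intermediate filament genes 12 rose and 2 fell. Nefl, the light neurofilament, went from 6.48 in CON to 10.69 in ASP and rose 18.5-fold, Gfap, the filament of astrocytes, rose 4.35-fold and Ina 3.76-fold. Nefm rose at least 3.25-fold from a CON mean under 6. The filament genes that fell were Nes, of progenitor and endothelial cells (1.65-fold), and Des, of muscle (1.46-fold), both named after their values were seen; 1 gene of the class was called lower after cyclic loess. Of 41 myosins, motors on actin, 4 rose (9.76%, against 9.81% of all genes) and 8 fell (19.5%, against 8.13%, and 1 after cyclic loess). Myo16 was 2.07-fold higher, Myo5a, which carries vesicles, 1.56-fold, Myl6b 1.56-fold and Myh10 1.5-fold. Myh9, the non-muscle myosin of most cells, was 1.60-fold lower.

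Among the classes described here, neural adhesion genes (the immunoglobulin family and neurexins among them) had the highest share of rises. Of 47 tested genes for neurexins, contactins, the IgLON proteins and similar molecules of the neuronal surface, 42 rose and 0 fell, with a median log2 difference of 1.36. Among the 47, 9 had a CON mean under 6 and were tested only because another pool mean was 6 or more. Opcml, an IgLON protein, rose 10.2-fold, its signals being 6.92, 6.87 and 7.0 in CON and 10.36, 10.30 and 10.17 in ASP. Cadherins and protocadherins gave 16 rises and 0 falls among 46 tested, of which 8 had a CON mean under 6. Cdh10 was at least 3.18-fold, Pcdh11x at least 3.09-fold and Cdh8 at least 3.31-fold higher, all from CON means under 6, and Fat3 was 3.38-fold higher. Of 66 guidance genes (semaphorins, plexins, ephrins, netrins and their receptors) 17 rose and 8 fell, and after cyclic loess 22 rose and 1 fell. The shares as deposited were 25.8% and 12.1%, against 9.81% and 8.13% of all genes. Efna3 rose 4.91-fold, Efnb3 3.05-fold and Epha4 2.51-fold, and Epha6 at least 1.59-fold.

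Junction and channel-forming proteins of membranes were fewer but among the steepest. Gjc3, a connexin of myelinating cells, read 6.33, 6.18 and 6.20 in CON and 9.66, 9.69 and 9.66 in ASP, a rise of 10.8-fold. Gjb6, an astrocyte connexin, rose at least 3.87-fold, Cldn11, the claudin of myelin, 4.23-fold, and Cldn10 3.98-fold. Of 42 claudins, connexins and aquaporins tested, 6 rose (14.3%, against 9.81% of all genes) and 2 fell (4.76%, against 8.13%). The 2 that fell, named after their values were seen, were Aqp9, 2.01-fold, a glycerol channel of liver, and Cldn15, 1.46-fold, and after cyclic loess 1 of the class was called lower.

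Among ion transport classes the share of rises was highest in sodium and calcium channels (21 of 32 higher), followed by pumps and exchangers (15 of 25) and potassium channels (35 of 84). Tested members with a CON mean under 6 numbered 3, 1 and 14, in the same order. Scn2b, an accessory subunit of sodium channels, rose 5.73-fold, and the calcium channel genes Cacnb4, Cacna1g and Cacna1e rose 4.76-fold, 4.75-fold and 4.29-fold. The 1 gene of that class that fell was Cacna2d1 (1.53-fold), named after its value was seen and not called after cyclic loess. Slc12a5, the neuronal potassium chloride cotransporter KCC2, went from 7.68, 7.82 and 7.77 in CON to 10.34, 10.38 and 10.30 in ASP, 5.99-fold. Atp2b2, a calcium pump of the plasma membrane, rose 4.64-fold, Fxyd7, a regulator of the sodium pump, 4.06-fold, and Slc24a3, a sodium calcium exchanger, 3.84-fold. No pump or exchanger fell. Kcnj10, the inward rectifier of astrocytes, rose 8.17-fold, Kcnip4 6.26-fold and Kcnc1 5.51-fold, while Kcnc2 rose at least 4.70-fold from a CON mean of 5.19. The 4 potassium channels that fell, named after their values were seen, were Kcnk5 (1.83-fold), Kcnq1 (1.54-fold), Kcnn2 (1.4-fold) and Kcnk9 (1.4-fold), and 1 channel of the class was called lower after cyclic loess.

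The machinery of vesicle release and recovery rose in part. Of 73 synaptotagmins, SNARE proteins and their partners 32 rose and 4 fell (34 and 0 after cyclic loess). Cplx1, a complexin that clamps fusion, went from a mean of 7.77 in CON to a mean of 10.98 in ASP and rose 9.26-fold. Sv2a and Napb rose 7.55-fold and 6.56-fold, and Sv2b at least 4.47-fold. The 4 that fell, chosen after their values were seen, were Snap23 (1.5-fold), the SNARE of most cells that is related to Snap25, Stx17 (1.46-fold), Rims4 (1.41-fold) and Stx11 (1.41-fold). Endocytosis genes gave 11 rises and 0 falls among 29, led by Amph at 4.96-fold, Dnajc6, the neuronal auxilin, at 4.72-fold, Pacsin1 at 3.89-fold and Dnm1 at 3.84-fold.

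Rab GTPases, which direct vesicle traffic in all cells, gave 10 rises and 3 falls among 58. These were 17.2% and 5.17%, against 9.81% and 8.13% of all genes. Rab6b rose 3.27-fold, Rab15 3.25-fold, Rab9b 2.56-fold and Rab3a 2.15-fold. Rab43, Rab3d and Rab29 fell 1.51-fold, 1.49-fold and 1.44-fold, and none of the class was called lower after cyclic loess. Of 23 subunits of the vacuolar proton pump, which acidifies vesicles, 5 rose and 0 fell. Atp6v1g2, the form of the G subunit found in neurons, read 8.95, 8.98 and 8.94 in CON and 11.87, 11.98 and 12.06 in ASP and rose 8.09-fold. The others that rose did so by 1.63-fold (Atp6v1c1), 1.55-fold (Atp6ap2), 1.45-fold (Atp6v1b2) and 1.45-fold (Atp6v0a1), so within this complex one subunit exceeded the rest by far.

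In the signalling classes behind membrane receptors most members were not called, and rises outnumbered falls. Of 31 subunits of heterotrimeric G proteins 8 rose and 4 fell (10 and 2 after cyclic loess). As deposited these were 25.8% and 12.9%, against 9.81% and 8.13% of all genes. Gnal, the stimulatory alpha subunit of olfactory and striatal neurons, rose 7.29-fold, with 9.46, 9.26 and 8.89 on the ASP arrays against 6.32, 6.37 and 6.32 on the CON arrays. Gnao1, the abundant alpha subunit of neurons, rose 4.43-fold, and the gamma subunits Gng3 and Gng2 rose 2.65-fold and 2.51-fold. The 4 that fell, named after their values were seen, were Gnat2 (1.71-fold), Gnb3 (1.61-fold) and Gngt2 (1.51-fold), which are best known from cone photoreceptors, and Gna14 (1.47-fold). Among 18 RGS genes, which end G protein signals, 6 rose, including Rgs8 at 5.75-fold, Rgs7bp at 4.69-fold, Rgs7 at 2.24-fold and Rgs17 at no less than 1.75-fold, and 1 fell, Rgs11 (1.68-fold).

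Enzymes of cyclic nucleotides came next. Of 15 adenylyl and guanylyl cyclases 5 rose and 0 fell, namely Adcy2 at 4.37-fold, Adcy8 at no less than 2.04-fold, Adcy5 at 2.30-fold, Gucy1b1 at 1.88-fold and Adcy1 at 1.72-fold. Of 22 phosphodiesterases 4 rose, Pde4b by 3.90-fold, Pde1b by 3.07-fold, Pde9a by 2.25-fold and Pde7b by 1.49-fold, and 2 fell (1 after cyclic loess), Pde5a (1.62-fold) and Pde3a (1.54-fold), which break down cyclic nucleotides in smooth muscle and vessels among other tissues. The shares of phosphodiesterases were 18.2% higher and 9.09% lower, against 9.81% and 8.13% of all genes. Of 15 protein kinase C and A genes 6 rose and 0 fell, with Prkcb at 2.92-fold, Prkar1b at 2.38-fold, Prkca at 1.83-fold and Prkcz at 1.70-fold. Among 32 genes for calmodulin kinases and proteins that bind calmodulin 15 rose and 0 fell. Camk2a, the alpha subunit of calmodulin kinase II, rose 19.8-fold, Gap43, a growth cone protein, 9.58-fold, and Rcan2, a regulator of calcineurin, 5.79-fold, while Camk1g rose at least 3.62-fold.

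Some regulators of RNA and transcription rose. Of 58 RNA-binding proteins of splicing 13 rose and 2 fell. Elavl3 rose 5.45-fold, Rbfox1 5.19-fold, Celf4 4.60-fold and Rbfox3 3.89-fold. Mbnl3 and Tra2a, named after their values were seen, fell 1.47-fold and 1.45-fold, and neither was called after cyclic loess. Of 66 SOX, POU and FOX factors 9 rose, and Sox2, of neural progenitors and glia, was at least 3.75-fold higher, Pou3f4 at least 2.29-fold, Sox9 2.08-fold and Pou3f3 1.98-fold. The 1 that fell was Foxa3 (1.42-fold), known from liver and not called after cyclic loess. Of this class 13.6% rose and 1.52% fell, against 9.81% and 8.13% of all genes. Zinc finger genes of the Zfp series, most of which are widely expressed, gave 9 rises and 13 falls among 273 (12 and 3 after cyclic loess), below the share of all genes in each direction. The leading rises were Zfp804a, at least 3.21-fold, Zfp365, 2.46-fold, Zfp385b, at least 1.92-fold, and Zfp536, at least 1.44-fold.

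In energy and lipid metabolism most genes were not called. Of 27 glycolysis genes 7 rose. Aldoc, the aldolase of brain, read 8.67, 8.70 and 8.70 in CON and 12.22, 12.35 and 12.31 in ASP and rose 12.2-fold. Eno2, the neuronal enolase, rose 6.17-fold, Ldhb 2.07-fold and Slc2a3, the neuronal glucose transporter GLUT3, 1.90-fold. The 1 that fell was Eno3, the muscle enolase (1.51-fold), which was not called after cyclic loess. In the tricarboxylic acid cycle 2 of 32 genes rose, Ogdhl (2.56-fold) and Me3 (1.69-fold). Another 2 fell, Suclg2 (1.44-fold) and Idh1 (1.43-fold), neither of them called after cyclic loess. Each share was 6.25%, against 9.81% higher and 8.13% lower over all genes. Of 90 subunits of the respiratory chain and ATP synthase 0 rose and 1 fell, Ndufa4l2 (10.12, 10.18 and 10.17 in CON and 9.24, 9.17 and 9.16 in ASP, 1.95-fold lower), a paralogue of a chain subunit that responds to low oxygen. The median of these 90 genes lay at -0.0032 with the deposited scaling and at 0.13 after cyclic loess.

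Among 36 enzymes for gangliosides, sphingolipids and myelin lipids 9 rose and 0 fell. Fa2h, which hydroxylates fatty acids of myelin, was at least 5.08-fold higher, Elovl4, which makes very long fatty acids, 5.14-fold, Ugt8a, which makes galactosylceramide, at least 2.02-fold, and St8sia1, the ganglioside GD3 synthase, 2.81-fold. In fatty acid oxidation 2 of 27 genes rose (7.41%) and 4 fell (14.8%), against 9.81% and 8.13% of all genes. Acsl6, the acyl-CoA synthetase of brain, rose 2.74-fold and Cpt1c, the neuronal carnitine transferase, 1.49-fold, whereas Acox2 fell 1.87-fold, Ehhadh 1.54-fold, Acsl4 1.49-fold and Acaa1b 1.44-fold. After cyclic loess 1 of this class was called lower. Of 29 genes for cholesterol synthesis and uptake, which feeds steroid synthesis, none was called in either direction by limma with the fold minimum, and the largest difference was that of Fdft1, 0.41 on the log2 scale. After cyclic loess 2 of the 29 were called higher.

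Related genes were then set side by side. In 25 families with at least one tested member of each kind, members listed with nervous tissue were compared with relatives listed with most tissues. Enolase was added with its neuronal member alone. The 2 labels are broad, may not hold for each gene (Ank1 and Ank3 among them), and which tissues use each member was not measured here. Of 44 nervous tissue members 41 rose and 0 fell (median log2 difference 1.75). Of 35 relatives 8 rose and 3 fell (median -0.06, or 0.05 after cyclic loess, when 10 rose and 0 fell). Over all genes 9.81% were called higher and 8.13% lower, or 12.1% and 3.01% after cyclic loess. The relatives thus also rose more often than genes at large. In 22 of the 25 families every nervous tissue member had a larger difference than every relative. The families were assembled with earlier results of these data known, so these counts describe the pattern and do not test it.

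The aldolases gave a wide gap. Aldoc rose 12.2-fold, while Aldoa, the form of most tissues, read 13.32, 13.34 and 13.31 in CON and 13.31, 13.30 and 13.36 in ASP (log2 difference 0.0014 ± 0.055 SE, limma adjusted p = 0.985). Among the heavy chains of conventional kinesin, Kif5a and Kif5c rose and Kif5b fell. Among inhibitory G protein alpha subunits, Gnao1 rose 4.43-fold and Gnaz 2.25-fold, while Gnai2 and Gnai3 had log2 differences of -0.11 and -0.45 and were not called. The JNK kinase Mapk10, of brain, rose 4.95-fold, beside 1.49-fold for Mapk9 and a log2 difference of 0.15 for Mapk8, which was not called. Of the PP2A regulatory subunits Ppp2r2c rose 4.63-fold and Ppp2r2b 2.25-fold, and Ppp2r2a and Ppp2r2d each had a log2 difference of -0.19. The dynein chain Dync1i1 rose 3.54-fold and its relative Dync1i2 had a difference of 0.11.

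The exceptions can be named. Atp2b3, Celf3 and Sptbn4 are the nervous tissue members that were not called, with log2 differences of -0.01, -0.15 and 0.44. Stmn1, listed with most tissues since dividing cells use it, rose 6.67-fold, above each of Stmn2 (4.0-fold), Stmn3 (4.42-fold) and Stmn4 (3.17-fold). The other relatives listed with most tissues that rose were Celf2 (1.92-fold), Ank1 (1.72-fold), Camk2g (1.66-fold), Fabp5 (1.55-fold), Mapk9, Kif1b (1.44-fold) and Atp2b1 (1.4-fold). Those that fell were Kif5b, Tubb6 and Rab3d.

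**Figure D4:**
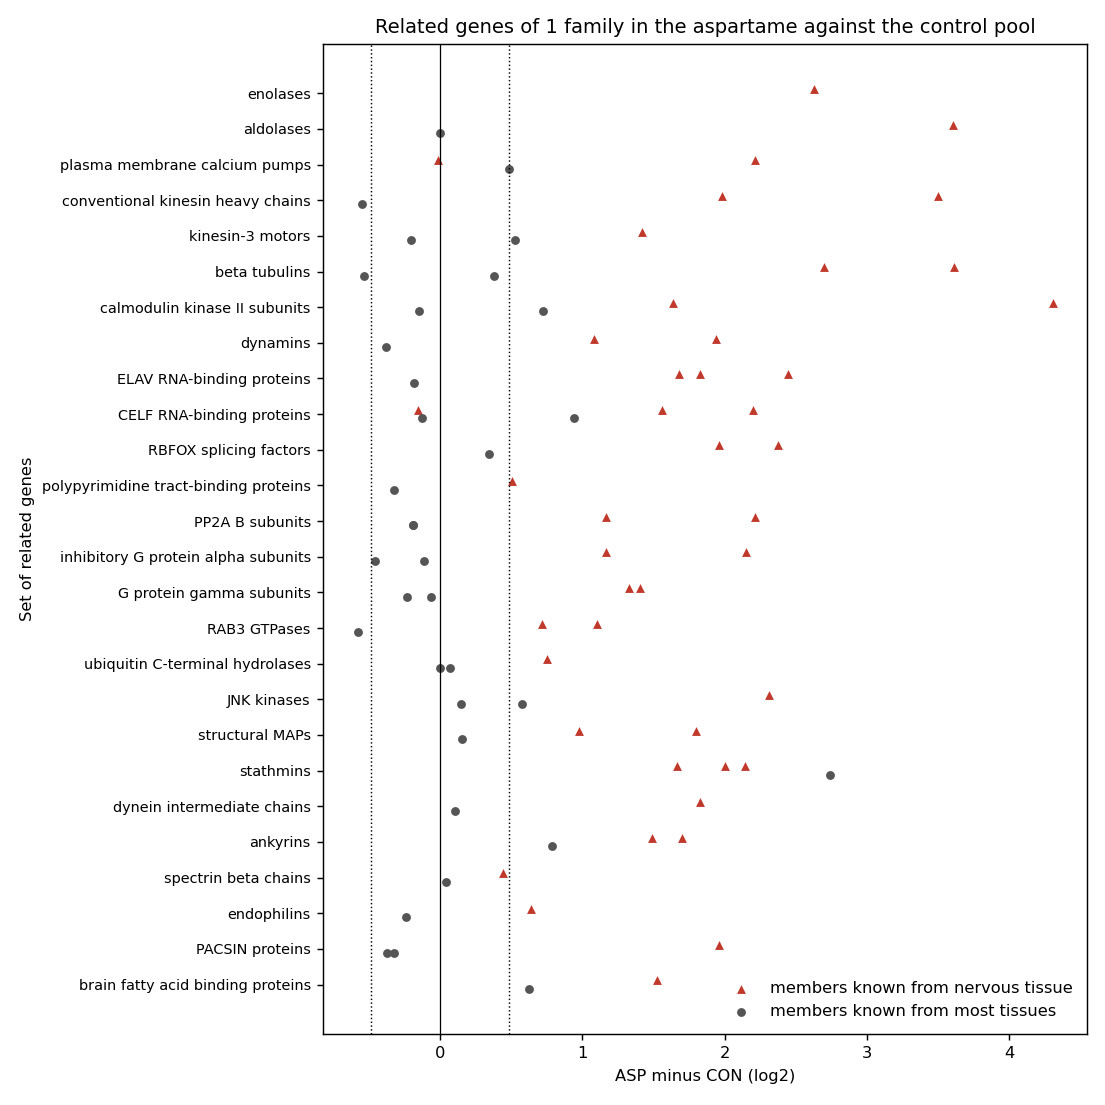
ASP minus CON difference (log2) of each member of 26 families of related genes, with members listed as known from nervous tissue as triangles and members listed as known from most tissues as circles. Dotted lines mark a 1.4-fold difference in either direction. Triangles lie to the right of circles in most families, and the stathmins, CELF proteins and plasma membrane calcium pumps are those in which the order is broken.

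Several large housekeeping classes stayed below the share of calls among all genes. Of 57 cytosolic ribosomal protein genes 0 rose and 1 fell, Rpl12 (1.42-fold), and of 77 mitochondrial ones 0 rose and 2 fell, Mrpl52 (1.44-fold) and Mrpl33 (1.42-fold), none of which was called lower after cyclic loess. Among 49 proteasome subunits 0 rose and 2 fell, Psmb8 (1.47-fold), a subunit induced by interferon, and Psme4 (1.43-fold), neither of them after cyclic loess. Of 63 translation factors 2 rose, Eef1a2 (2.44-fold), the elongation factor of neurons and muscle, and Eif5a2 (2.41-fold). Of 30 aminoacyl-tRNA synthetases only Eprs (probe set 10352514, Entrez 107508) was called. Its signals were 10.69, 10.71 and 10.74 in CON and 9.5, 9.63 and 9.59 in ASP, 2.20-fold lower (log2 difference -1.14 ± 0.060 SE, limma adjusted p = 5.05e-10), whereas the other 29 had smaller differences, with Rars next at -0.44.

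In the stress classes most genes were not called, and the share that fell was 7.89% of heat shock proteins and chaperones, 10.7% of the unfolded protein response and 14.7% of oxidative stress genes, against 8.13% of all genes. Of 38 heat shock proteins and chaperones 1 rose, Cryab (1.87-fold), and 3 fell, Bag3 (1.55-fold), Hsp90b1 (1.51-fold) and Hspb8 (1.42-fold), with 1 fall left after cyclic loess. Of 28 genes of the unfolded protein response 1 rose, Asns (1.41-fold), and 3 fell, Ppp1r15a (1.57-fold), Dnajc3 (1.48-fold) and Ern1 (1.41-fold), none of them after cyclic loess. Among 34 oxidative stress genes 3 rose and 5 fell, none of the latter after cyclic loess. Mt3, the metallothionein of brain, rose 3.65-fold, Slc7a11, the cystine transporter, 2.52-fold, and Gstm5 1.53-fold, while Sod3 fell 1.47-fold. The remaining 4 that fell, named after their values were seen, were Gsta3 and Gstm2 (1.43-fold each), and Srxn1 and Hmox1 (1.41-fold each). Receptors and keratins that the gland is not known to use came last. Olfactory, vomeronasal and taste receptors gave 1 rise and 3 falls among 181 (1 and 2 after cyclic loess), and keratins 1 rise and 0 falls among 58. All these shares were under those of all genes.

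The largest falls were smaller than the largest rises. Adamts9, a secreted protease that cuts proteoglycans (probe set 10546450, Entrez 101401), read 10.04, 10.15 and 10.20 in CON and 8.64, 8.61 and 8.40 in ASP, 2.99-fold lower (log2 difference -1.58 ± 0.088 SE, limma adjusted p = 1.11e-09). Prl8a2, a member of the prolactin family best known from the decidua (probe set 10404316, Entrez 13529), read 8.89, 8.94 and 9.10 in CON and 7.63, 7.72 and 7.72 in ASP, 2.44-fold lower. Nat8f2, an acetyltransferase, fell 2.37-fold, Mettl7b 2.24-fold, Ly6m 2.13-fold and Pigr, the polymeric immunoglobulin receptor, 2.09-fold. Pzp, a plasma protease inhibitor made in liver, fell 2.09-fold, Filip1 2.05-fold, Alas2, the haem synthesis enzyme of red cells, 2.01-fold, and the taste receptor Tas2r143 1.98-fold. Liver markers moved with some of these genes over the 4 pools, with sums of 19621 to 19846 in CON, 27218 to 29008 in CGP, 12188 to 12710 in ASP and 9053 to 9766 in ASP+CGP. Nat8f2 had means of 9.01, 10.05, 7.76 and 7.44 in the same pools. Mettl7b and Pzp were likewise highest in CGP and lowest in ASP+CGP, and Pigr was highest in CGP and lowest in ASP. The narrower spread of the ASP+CGP arrays, given above, limits comparisons with that pool. The part of liver RNA in these falls was not tested. Blood markers moved with Alas2, which is one of the 2 tested, and their sums were 711 to 772 in CON and 410 to 439 in ASP.

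Matrix genes moved in both directions. Of 43 laminins, proteoglycans and other matrix proteins 6 rose and 12 fell, or 6 and 3 after cyclic loess. The rises were in proteins of the brain matrix and its glia. Sparcl1 rose 4.67-fold, Ncan, or neurocan, 3.64-fold, and the link proteins Hapln4 and Hapln2 2.99-fold and 2.60-fold. Tnr, tenascin-R, named like the next genes after its value was seen, rose 2.17-fold. The falls included proteins of basement membranes. Hspg2, or perlecan, read 11.29, 11.36 and 11.33 in CON and 10.62, 10.62 and 10.68 in ASP, 1.61-fold lower. Lama5 fell 1.59-fold, Nid1 1.55-fold and Lamb1 1.54-fold, and the latter pair was not called after cyclic loess. Of 44 collagens 4 fell (9.09%, near the 8.13% of all genes, and 0 after cyclic loess) and 1 rose (2.27%). The falls were in Col4a1 (1.54-fold) and Col4a2 (1.53-fold), the chains of basement membranes, Col18a1 (1.43-fold) and Col1a2 (1.4-fold). The rise was in Col25a1 (1.54-fold), a membrane collagen of neurons.

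Most receptors and proteases of the matrix were not called, and with the deposited scaling falls outnumbered rises among those that were. Of 28 integrins 1 rose, Itgb8 (2.03-fold), and 9 fell (3 after cyclic loess), with Itga1 at 1.73-fold, Itga5 at 1.58-fold and Itga9 at 1.57-fold. Of 42 ADAMTS, MMP and TIMP genes 3 rose and 9 fell (4 and 4 after cyclic loess). Beside Adamts9, Adamts1 fell 1.77-fold and Adamtsl2 1.63-fold. Timp4, an inhibitor of matrix proteases, rose 2.58-fold, and Mmp17 and Mmp16, named after their values were seen, rose 1.59-fold and 1.42-fold. Endothelial markers, given above, were lower in ASP as well, and their part in these falls was not tested.

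Immune classes gave many falls and few rises. Of 50 interferon-stimulated genes 17 fell and 0 rose, against 7 and 1 after cyclic loess. Isg20, an exonuclease against viral RNA, went from 9.68, 9.71 and 9.77 in CON to 8.90, 9.0 and 8.91 in ASP, 1.72-fold lower. Irf7, the regulator of type I interferon genes, fell 1.71-fold, Ifi30 1.57-fold, and Iigp1 at least 1.26-fold, to an ASP mean under 6. Among 31 complement and immunoglobulin receptor genes 11 fell and 0 rose, or 5 and 0 after cyclic loess. Fcgr4 fell 1.79-fold, and the terminal complement components C7 and C6 fell 1.67-fold and 1.66-fold. Of 32 genes for MHC and antigen presentation 8 fell (2 after cyclic loess), with H2-Q4 at 1.62-fold, H2-Q10 at 1.52-fold and Tap1 at 1.46-fold. The H2-Q genes are close copies of one another, so the probes may read more than 1 of them.

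Of 102 chemokines, interleukins, their receptors and those of the TNF family, 13 fell and 1 rose, against 5 and 6 after cyclic loess. The falls as deposited were 12.7%, against 8.13% of all genes. Il23r and Tnfrsf1b, a TNF receptor, each fell 1.64-fold, and Il10rb 1.55-fold. The 1 that rose was Tnfrsf21, a death receptor of neurons and oligodendrocytes, 4.58-fold. The tested lymphocyte markers Cd3e and Ptprc were not called, with sums of 314 to 328 in CON and 231 to 260 in ASP.

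HOX genes encode factors that mark position along the body axis and are active in trunk tissues. Of 34 tested 11 fell and 0 rose (7 and 0 after cyclic loess), with a median log2 difference of -0.31. Hoxb9 (probe set 10380622, Entrez 15417) read 11.90 on each CON array and 11.11, 11.18 and 11.16 in ASP, 1.68-fold lower. Hoxb5 fell 1.64-fold, Hoxc5 1.61-fold and Hoxb3 1.60-fold. The B cluster held 6 of the falls among 9 tested genes (median -0.55) and the C cluster 3 among 7 (median -0.37), while the A and D clusters had 1 each among 9. The calls lay in genes numbered 1 to 9, where 11 of 25 fell. None of the 9 genes numbered 10 to 13 was called, and all 9 had a CON mean under 7, at which a further fall could hardly be seen. These HOX counts by cluster and number were made after the values were seen.

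**Figure D5:**
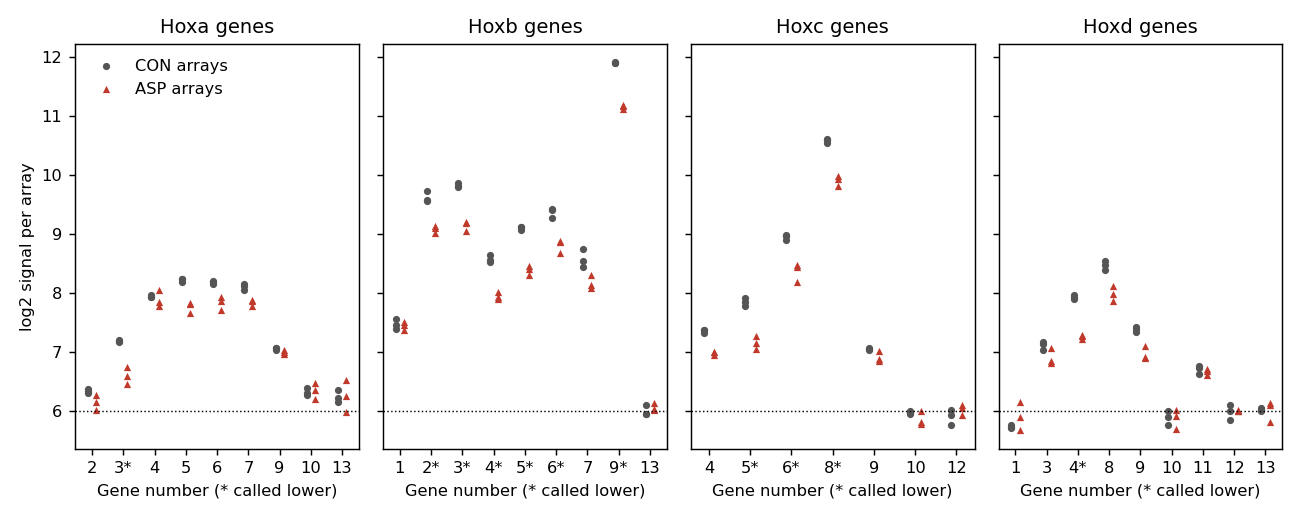
Log2 signal of each CON array (circles) and ASP array (triangles) for the 34 HOX genes tested, by cluster (panels) and gene number (horizontal axis); an asterisk marks the 11 genes called lower and the dotted line marks 6. ASP arrays lie below CON arrays for most genes of the middle numbers, as in Hoxb9 and Hoxc8, and the pools overlap at the low signals of numbers 10 to 13.

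Micro RNA genes were examined as a class after their values had been seen. These short RNAs bind messages through bases 2 to 8 of the mature strand, the seed. The array probes lie in the precursor or its host transcript, so mature amounts were not measured. Of 142 such genes tested 2 rose (1.41%) and 8 fell (5.63%), against 9.81% and 8.13% of all genes. After cyclic loess 2 rose and 5 fell (3.52%), against 12.1% and 3.01% of all genes. The mature sequences below, from RefSeq (GRCm38.p6), belong to the 2 genes that rose and to 3 that fell, Mir196a-1 for its place in a HOX cluster and Mir18 and Mir15a as members of seed families studied in cell growth. Capitals mark the seed.
miR-219a-5p: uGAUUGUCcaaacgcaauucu
miR-138-5p: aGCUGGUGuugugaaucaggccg
miR-196a-5p: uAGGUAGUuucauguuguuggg
miR-18a-5p: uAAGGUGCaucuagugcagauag
miR-15a-5p: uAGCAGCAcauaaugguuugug

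No 2 of these 5 share a seed. Mir219a-2 (mature strand at chr2:29845689-29845709, minus), whose product is known from oligodendrocyte maturation, read 6.34, 6.15 and 6.17 in CON and 6.89, 6.59 and 6.66 in ASP, 1.41-fold higher (log2 difference 0.49 ± 0.092 SE, limma adjusted p = 0.000356). Its difference was 0.46 without CON replicate 2, 0.47 without CON replicate 3 and 0.40 without ASP replicate 1, each under the fold minimum. Mir138-2 (chr8:94324312-94324334, plus), whose product is known from neurons and glia, read 6.58, 6.72 and 6.35 in CON and 7.28, 7.05 and 7.39 in ASP, 1.61-fold higher. Both rises were small beside those of the protein-coding genes above and came from low signals.

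Mir196a-1 (chr11:96265187-96265208, plus) lies in the HOX B cluster between Hoxb9 and Hoxb13. It read 7.64, 7.82 and 7.80 in CON and 6.82, 7.09 and 7.03 in ASP, 1.71-fold lower (limma adjusted p = 2.12e-05), next to 1.68-fold for Hoxb9. Mir18 (chr14:115043867-115043889, plus) fell to an ASP mean under 6, so that its fall was at least 1.12-fold, and Mir15a (chr14:61632075-61632096, minus) fell 1.44-fold. The other falls were in Mir694 (1.90-fold), Mir323 (1.57-fold), Mir300 (1.48-fold), Mir365-2 (1.45-fold) and Mir532 (at least 1.25-fold). After cyclic loess Mir15a, Mir300 and Mir365-2 were not called.

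Hormone-sensing and timing genes changed in both directions. Of 42 nuclear receptors 13 fell and 5 rose, or 6 and 5 after cyclic loess. Nr4a2, an early response factor, read 11.60, 11.59 and 11.54 in CON and 10.62, 10.62 and 10.67 in ASP, 1.92-fold lower, and Vdr, the vitamin D receptor, fell 1.8-fold. The 5 that rose were Rxrg (1.98-fold) and Rorb (1.94-fold), and, named after their values were seen, Thra (1.69-fold), Nr2e1 (at least 1.69-fold) and Pgr (at least 1.58-fold). Of 25 genes induced by glucocorticoids 5 fell (4 after cyclic loess) and 1 rose, Glul (1.46-fold), the glutamine synthetase, which astrocytes hold in plenty. Cebpb fell 1.59-fold, Map3k6 1.58-fold, Dusp1 1.52-fold, Lcn2 1.5-fold and Fkbp5 1.41-fold. Of 21 clock genes Ciart (2.23-fold), Rorb, Hlf (1.60-fold) and Tef (1.4-fold) rose and Nfil3 (1.88-fold) and Clock (1.49-fold) fell, 1 of them after cyclic loess. The shares of clock genes were 19.0% higher and 9.52% lower, against 9.81% and 8.13% of all genes.

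For growth and signalling families the shares are set against 9.81% higher and 8.13% lower over all genes. Of 57 genes of the TGF-beta and BMP pathway 5 rose (8.77%) and 10 fell (17.5%, and 3 after cyclic loess). Id4 was 2.20-fold, Fstl4 2.02-fold and Acvr1b 1.71-fold higher. Of 55 FGF, neurotrophin and related genes 9 rose (16.4%) and 5 fell (9.09%), or 12 and 1 after cyclic loess. Fgf12, an intracellular partner of sodium channels, rose 6.10-fold, Ntrk2, the BDNF receptor, 5.02-fold, Fgfr3 3.87-fold and Erbb4 3.64-fold. The falls in that class, named after their values were seen, were Fgfr4 (1.69-fold), Igfbp3 (1.48-fold), Igfbp4 (1.46-fold), Igfbp2 (1.43-fold) and Fgfr2 (1.42-fold). In the WNT pathway 2 of 53 rose (3.77%), Sfrp2 (1.57-fold) and Wnt3 (at least 1.56-fold). As many fell, Lgr5 (1.58-fold) and Tcf7l1 (1.49-fold), neither of them after cyclic loess, and both shares were under those of all genes. Of 40 cell cycle genes 0 rose and 5 fell (12.5%), and none was called after cyclic loess. Those that fell were Mcm2 (1.48-fold), Cdkn1c (1.46-fold), Ccnd3 (1.43-fold), Mcm3 (1.43-fold) and Cdk2 (1.41-fold).

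Genes of the gland's own hormones mostly fell or stayed. Of 15 genes of steroid hormone synthesis 7 fell and 0 rose (3 and 0 after cyclic loess). Cyp17a1, which makes precursors of cortisol and androgens and is low in the mouse adrenal, read 8.0, 8.21 and 8.15 in CON and 6.90, 7.12 and 7.17 in ASP, 2.09-fold lower. Nr0b1, or DAX-1, fell 1.55-fold and Fdx1, the electron carrier of steroid enzymes, 1.46-fold. Of 28 chromaffin granule proteins and peptides 3 rose and 9 fell (6 and 4 after cyclic loess). Penk, the enkephalin precursor, rose 2.12-fold, Ret, a receptor for growth factors of the GDNF family, 3.08-fold and Scg3 1.83-fold, while Gata3, a transcription factor of chromaffin cells, fell 1.88-fold and Slc18a1, the vesicular monoamine transporter of chromaffin cells, 1.67-fold. Penk, Ret and Scg3 are also used in brain, and whether brain cell RNA had a part in their rise was not tested.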

How the data were processed

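RNA from adrenal glands was hybridised to Affymetrix Mouse Gene ST arrays, with 3 for each of 4 RNA pools. The deposited log2 values came from the authors' RMA processing in Partek (background adjusted, quantiles normalized, probes summarised by median polish), and values staying under 6 had been filtered. There is no read depth here, and precision is set by how many arrays were run. Of 26533 probe sets 17710 list 1 gene, 1077 several and 7746 none. Each of 16244 genes was taken at its probe set with the highest mean over 12 arrays (839 had several), and 344 genes with all pool means under 6 were left out. Of the 15900 tested, 15854 matched a RefSeq gene by Entrez identifier. Coordinates are given only for mature micro RNA strands.

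A linear model with 1 mean per pool used all 12 arrays in limma 3.58.1 (R 4.3.3 with data.table, version 1.17.8), with empirical Bayes moderation. P-values of ASP minus CON were adjusted by the Benjamini-Hochberg method over the 15900 genes. Calls needed an adjusted p under 0.05 and at least 1.4-fold. Where a pool mean was under 6 it was set to 6 and the fold is a bound. The steps were tested on simulated data. Lists and figures were made with Python 3.11.15, pandas 2.3.3 and matplotlib 3.10.9.

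Arrays correlated across probe sets at 0.994 to 0.995 within CON, 0.992 to 0.993 within ASP and 0.926 to 0.934 between them.

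The comparison, gene lists and families were chosen with earlier results of these data known. Genes named include the 12 largest rises and falls among called genes whose CON and ASP arrays do not overlap. Receptor, liver and brain marker genes, predicted genes and small RNAs were left out of these. Also named are up to 4 members of each list with the largest differences, all members of the families of related genes and the adrenal markers. Genes named because a count was 5 or fewer, the micro RNA genes, and Tnr, Hspg2, Lama5, Nid1, Lamb1, Hoxc8, S100b, Sox10, Myh10 and Atp6v0a1 were chosen after their values were seen. A list of replication histones matched no tested gene.

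Alternatives covered the filter on dim genes, array scaling, the arrays in the fit, the moderation, the replicate block, the fold minimum, the choice of probe set and leaving out each array.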

Additional observations from a re-analysis of the deposited data

Results flagged for a closer look

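Probe sets that no gene comparison used also differed between the pools. Of 7228 tested probe sets listed with no gene, 290 were called higher and 764 lower in ASP. Of 1050 listed with several genes, 55 were called higher and 55 lower. These probe sets were fitted apart, and what they measure is not named here.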

How the results depend on the processing

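With 1559 genes called higher and 1292 lower as reported, the lower count moved by over 1.5 times under 3 alternatives: it was 479 after cyclic loess, 5987 with no fold minimum and 139 with a 1.8-fold minimum. The higher count was 2801 with no fold minimum and 937 with a 1.8-fold minimum. After cyclic loess all 1559 rises were kept and 367 added, while 813 falls were lost, and the cause was not tested. Of 401 named genes examined 71 lost their call after cyclic loess and 0 reversed under any alternative. The remaining alternatives gave 1394 to 1615 genes higher and 1109 to 1296 lower. Leaving out each array in turn gave 1543 to 1595 higher and 1178 to 1463 lower, and 36 named genes, none above 1.48-fold, lost their call in at least 1 of these fits. Replicate numbers did not pair the arrays (deviations from the pool means correlated at 0.19, 0.068 and -0.054 for numbers 1, 2 and 3), and the fit with a replicate block gave 1559 and 1292. Signals near 6 limit what can be seen of falls in dim genes.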
